A study of Homo sapiens with 28 samples.

Results

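The sites described here are CTCF peaks of T47D cells, an established line of luminal breast cancer. Each was listed both in normoxia and in hypoxia and lay at no listed peak of H3K27ac, ZHX2 or Flag. They were chosen from the authors' normoxia CTCF list on chromosomes 1 to 22 and X. A peak was taken when it overlapped a hypoxia CTCF peak by at least 1 bp and overlapped no peak of 6 other lists. Those lists were H3K27ac and ZHX2, each in both oxygen conditions, and the Flag lists of hypoxic cells with WT or PA ZHX2. The rule kept 47464 of 88248 normoxia CTCF peaks, which is 53.8% of the list (95% Wilson interval 53.5 to 54.1%). They are called quiet sites below. The 25208 peaks that were also shared by both CTCF lists but touched at least 1 of the 6 other lists are called active sites, and a peak of those lists an active peak. Of the active sites 2447 (9.71%) overlapped ZHX2 or Flag peaks only and no H3K27ac peak, so "active" does not always mean acetylated. "Quiet" means only that no such peak was listed: other marks, and the transcription of the genes nearby, were not measured in these files.

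The series held 28 samples of chromatin from T47D cells, and 16 of them were immunoprecipitated, in 8 groups of 2. CTCF, H3K27ac and ZHX2 were each taken under normoxia and under hypoxia. Flag was taken under hypoxia alone, in cells carrying WT ZHX2 or ZHX2 PA, a form that the labels give only by these letters. Per the labels, lentivirus was used for infection with drug selection, hypoxia was applied in a workstation, and hypoxic cells were fixed inside the chamber. The other 12 samples had no antibody. Each immunoprecipitated group had 1 deposited peak list, with no values per replicate. No test between groups was therefore possible, the number of reads behind a peak is unknown, and every interval below covers counting error over peaks only. T47D is a tumour line with an altered chromosome number, and copy number was not measured here.

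CTCF is a DNA-binding protein with an array of zinc fingers that recognises a long, GC-rich motif. Cohesin extrudes chromatin loops and is halted by bound CTCF in a manner that depends on the direction of the motif, so that loops and the borders of topological domains often end at CTCF sites. Many CTCF sites are occupied in most cell types, while those at enhancers and promoters vary more. H3K27ac is the acetylation of a histone H3 lysine found at active promoters and enhancers. ZHX2 belongs to a small family of proteins with zinc fingers and homeoboxes.

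Sequence was available for promoter windows only, from 250 bases before to 50 bases after a RefSeq gene start (GRCh38.p14). Among the protein-coding windows that held the summit of a quiet site, 6 of those with the highest normoxia fold are shown for the stretch around the CTCF summit, because they let the motif be seen beside the binding. Capitals mark the match to the 12-letter CTCF core consensus nearest to the summit, with up to 1 mismatch. A stretch with a match is written on the strand on which the core reads forward, and a stretch without one on the strand of its gene.
SDCBP2: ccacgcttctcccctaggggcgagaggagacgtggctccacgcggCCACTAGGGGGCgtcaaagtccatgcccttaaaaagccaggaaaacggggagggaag
MC5R: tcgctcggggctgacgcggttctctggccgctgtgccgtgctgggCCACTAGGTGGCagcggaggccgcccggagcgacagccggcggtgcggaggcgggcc
CCBE1: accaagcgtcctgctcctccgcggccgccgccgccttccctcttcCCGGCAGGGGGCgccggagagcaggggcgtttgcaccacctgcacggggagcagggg
CELF5: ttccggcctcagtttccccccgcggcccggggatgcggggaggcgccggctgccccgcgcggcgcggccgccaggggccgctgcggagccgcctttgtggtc
PTPRE: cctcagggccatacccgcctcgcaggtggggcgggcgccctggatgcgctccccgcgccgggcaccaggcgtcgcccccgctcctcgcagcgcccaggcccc
IL18R1: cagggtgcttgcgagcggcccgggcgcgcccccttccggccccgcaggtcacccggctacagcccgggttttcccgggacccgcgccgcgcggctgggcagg

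The stretches lie at chr20:1313627-1313728 (SDCBP2, forward strand, gene on the reverse strand), chr18:13824014-13824115 (MC5R, forward strand as the gene), chr18:59697386-59697487 (CCBE1, forward strand, gene on the reverse strand), chr19:3224504-3224605 (CELF5), chr10:127906939-127907040 (PTPRE) and chr2:102355721-102355822 (IL18R1), the last 3 on the forward strand as their genes. SDCBP2, a syntenin paralogue, and MC5R, a melanocortin receptor, had a core with no mismatch, 20.5 and 6.5 bp from the summit. The site at CCBE1, a secreted factor of lymphatic growth, had a core with 1 mismatch 4.5 bp from its summit. The windows of CELF5, an RNA-binding protein, of PTPRE, a receptor tyrosine phosphatase, and of IL18R1, the interleukin-18 receptor, held no such match. Their folds overlapped: the normoxia fold enrichment, the authors' ratio over background, was 309 at SDCBP2, 292 at MC5R and 260 at CCBE1, against 362 at CELF5, 311 at PTPRE and 254 at IL18R1.

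Over all windows the core was commoner at quiet sites than at other CTCF peaks. Among 336 windows with the summit of a quiet site in their inner 200 bases, 140 held the core with up to 1 mismatch on either strand, or 41.7% (36.5 to 47%). Some windows shared a site: the 336 held 322 distinct sites, of which 136 had a core, or 42.2% (36.96 to 47.7%), so that the intervals over windows count a few sites more than once. The share was 20.2% (18.7 to 21.6%) of 2923 windows with the summit of an active site and 7.51% (5.18 to 10.8%) of 346 windows with a normoxia-only CTCF summit. It was 4.94% of all 34961 windows and 2.47% of the 22781 windows without a normoxia CTCF peak. With no mismatch allowed, the core stood in 9.23% (6.58 to 12.8%) of the windows of quiet sites and 3.18% (2.60 to 3.88%) of those of active sites. Of the 336 windows 171 belonged to protein-coding genes, against 2371 of the 2923 at active sites, so the groups of windows also differed in the kind of gene. Fold was not matched between the groups either, and at quiet sites the share rose with fold, as given below. Normoxia-only peaks of the whole list had median folds of 5.18 with an active peak and 5.89 without one. The part of these differences in the motif share was not tested.

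Stronger quiet sites held the core more often, and the core lay close to the summit. By quartile of normoxia fold, the share with a core was 25%, 34.5%, 39.3% and 67.9%, from the weakest (fold 3.30 to 12.5) to the strongest (104 to 690), each over 84 windows. The intervals of the lowest and the highest quartile, 17 to 35.2% and 57.3 to 76.9%, did not overlap, while those of the 3 lower quartiles did. The middle of the core was a median of 14.5 bp from the summit, and 118 of the 140 matches were within 25 bp. It read in the direction of the gene in 92 windows and against it in 48. The strongest site in these windows, at the start of the long non-coding RNA LINC02551 with fold 690, had a core with 1 mismatch 33.5 bp from the summit.

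**Figure D1:**
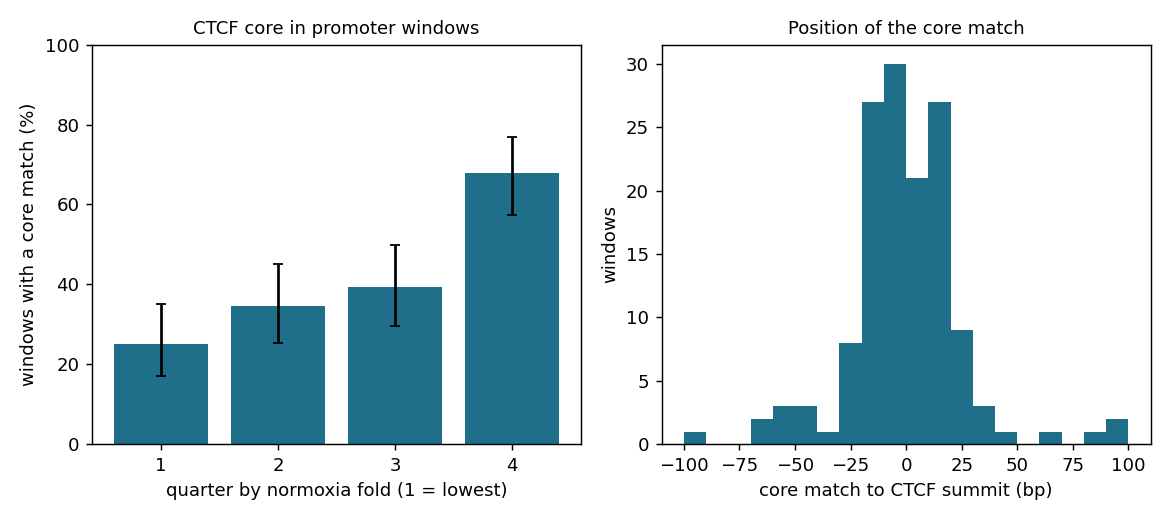
CTCF core in the promoter windows that hold the summit of a quiet site in their inner 200 bases. The left panel gives the share of windows with a core match (up to 1 mismatch) by quartile of normoxia fold enrichment, 84 windows per bar with 95% Wilson intervals, rising from 25% to 67.9%. The right panel counts the 140 matches by their signed distance from the summit on the forward strand of the genome, in bins of 10 bp with larger distances placed in the end bins, and 118 of them are within 25 bp.

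The clustered protocadherins gave a second set of quiet sites with a shared sequence. These genes on chromosome 5 encode neuronal cell-surface proteins, and most carry a CTCF site at the promoter of each variable exon. Of 53 genes, 51 had a shared CTCF peak within 1 kb of an annotated end (96.2%), against 56.5% of all 19821 protein-coding genes. A quiet site stood there in 20, or 37.7%, against 10.2% of all protein-coding genes. Here and below, an end of a gene is either of its boundaries, the start included, unless starts are counted apart. A summit of a quiet site lay in 16 of the 52 windows found for these genes. None of the 16 held the 12-letter core with up to 1 mismatch, but 11 held the shorter string TGNCGCTG, in each case in the direction of the gene and a median of 6.5 bp from the summit. This string, where N is any base, was chosen after the sequences had been seen. On either strand it stood in 24 of the 52 protocadherin windows (46.2%) and in 4.90% of all windows. The stretches around 8 of the 11 are shown with the string in capitals, all on the forward strand, which is the strand of these genes.
PCDHB3: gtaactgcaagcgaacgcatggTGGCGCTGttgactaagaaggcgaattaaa
PCDHB12: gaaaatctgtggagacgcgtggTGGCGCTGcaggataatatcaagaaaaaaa
PCDHB16: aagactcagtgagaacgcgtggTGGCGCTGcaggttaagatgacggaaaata
PCDHB4: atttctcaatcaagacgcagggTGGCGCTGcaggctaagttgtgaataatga
PCDHGA3: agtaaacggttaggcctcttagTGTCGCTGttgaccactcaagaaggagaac
PCDHGA4: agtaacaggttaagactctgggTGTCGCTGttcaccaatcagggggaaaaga
PCDHA8: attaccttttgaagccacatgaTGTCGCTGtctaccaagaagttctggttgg
PCDHA6: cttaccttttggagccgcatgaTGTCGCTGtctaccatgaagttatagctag

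These stretches begin at positions 141100384, 141208634, 141182301, 141121714, 141343758, 141354951, 140841121 and 140827888 of chromosome 5 in the order shown, and each is 52 bases long. Normoxia fold was 89.6 at PCDHB3, 69.5 at PCDHB12, 45.5 at PCDHB16 and 37.4 at PCDHB4, all in the beta cluster. It was 35.0 at PCDHGA3 and 28.6 at PCDHGA4 in the gamma cluster, and 16.7 at PCDHA8 and 7.68 at PCDHA6 in the alpha cluster. The strongest quiet site of the 3 clusters was at PCDHAC1 (chr5:140925931-140927168, fold 360 in normoxia and 295 in hypoxia), 39.1 kb from the nearest active peak.

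Quiet and active sites were interspersed along these clusters, and the quiet ones had the lower median fold. In the alpha cluster 9 of 17 shared CTCF peaks were quiet, with a median normoxia fold of 13.96 against 88.3 for the 8 active ones. In the beta cluster 7 of 17 were quiet, with medians of 45.5 and 132, and in the gamma cluster 8 of 21, with medians of 17.8 and 109. Over all chromosomes 65.3% of shared CTCF peaks were quiet. The beta genes show this promoter by promoter: PCDHB3, PCDHB4, PCDHB11, PCDHB12 and PCDHB15 had 1 shared CTCF peak each and it was quiet, with folds of 17.1 to 89.6. PCDHB2, PCDHB5, PCDHB6, PCDHB7, PCDHB8, PCDHB10 and PCDHB13 had 1 each and it was active, with folds of 70.9 to 163. Of the 10 active beta sites 9 overlapped H3K27ac in each condition.

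Over the whole list, quiet sites were neither the weakest nor the strongest CTCF peaks. Their normoxia fold had a median of 30.4, with 80% of sites between 7.42 and 142, and the median of active sites was 30.2 with 80% between 5.54 and 241. The strongest peaks were mostly active: quiet sites were 12 of the 100 peaks with the highest fold and 189 of the 1000 highest. By decile of normoxia fold, quiet sites were 14.4% of the weakest decile, 74.0% of decile 7 and 45.1% of the strongest decile. In the weakest decile the hypoxia list and the active lists both limited the quiet sites. Only 38.3% of peaks there were shared at all, and 37.6% of the shared ones were quiet, the lowest such share of any decile. From decile 7 upwards every peak was shared and active peaks alone set the remainder. Sharing and the active lists chose the sites, so these shares describe the choice. Quiet sites were also narrower than active ones, with median widths of 479 and 675 bp, and in the strongest decile of 976 and 1070 bp.

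**Figure D2:**
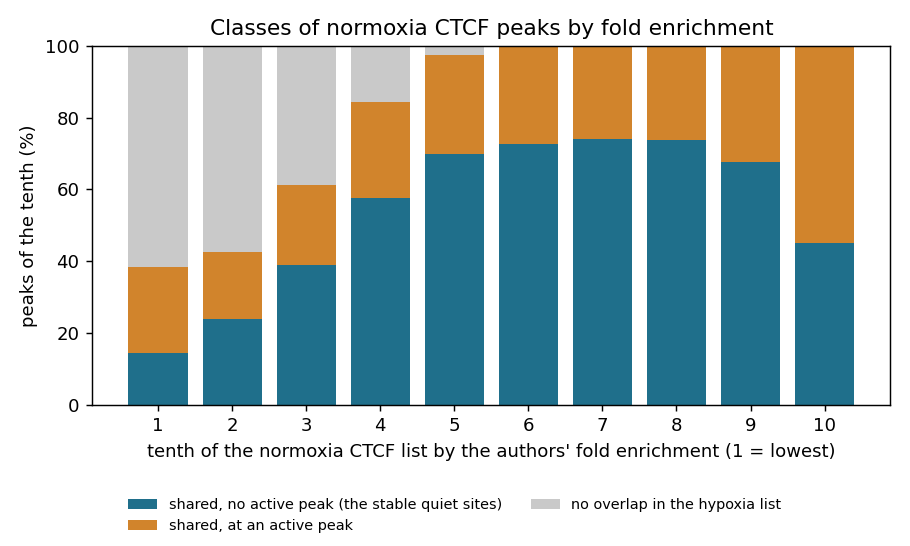
Normoxia CTCF peaks divided into 10 deciles by the authors' fold enrichment (x axis, 1 the lowest), with the percentage of each decile that is quiet, shared and active, or not overlapped in the hypoxia list (stacked bars, y axis). Quiet sites make up 14.4% of the first decile, 74.0% of the seventh and 45.1% of the last.

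The rule asked only for 1 bp of overlap between conditions and did not use the distance between summits. That distance describes how closely the positions matched, but it was taken between overlapping peaks, so their widths bound it. The nearest hypoxia summit was a median of 10 bp from the normoxia summit of a quiet site and within 100 bp for 98.0% of them (97.9 to 98.2%). For active sites the median was 11 bp and the share within 100 bp was 91.3% (91.0 to 91.7%). Active sites were also wider, with a median of 675 bp against 479 bp in normoxia, and the part of width in this difference was not tested. The distance narrowed with strength, from a median of 18 bp in the lowest quartile of quiet sites by fold to 5 bp in the highest. Only 125 quiet sites overlapped more than 1 hypoxia peak. Across the 47464 quiet sites the folds of the 2 lists had a Spearman correlation of 0.899 and, on the log2 scale, a Pearson correlation of 0.895. For active sites both were higher, at 0.924 and 0.932. The sites share libraries, local copy number and base composition, so the correlation is a description. The median hypoxia fold was 25.5, and without values per replicate it cannot be said whether it differs from the normoxia median of 30.4.

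**Figure D3:**
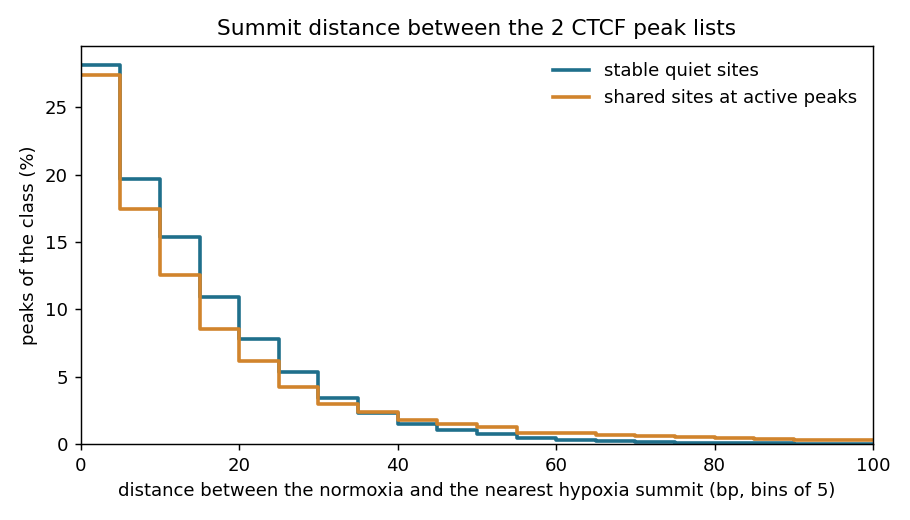
Distance between the summit of a normoxia CTCF peak and the nearest hypoxia summit (x axis, bp, bins of 5 bp up to 100 bp), as a percentage of the quiet sites and of the active sites (y axis). Both curves are highest in the first bin, at 28.1% and 27.4%, and the curve of active sites has the longer tail.

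For a small group the summits of the 2 lists lay apart. In 824 quiet sites (1.74%) the distance was more than 250 bp. In 725 of these the overlapping hypoxia peak also covered a normoxia peak with a higher fold. The sites that climbed most in fold percentile between the lists were of this kind, since each was given the fold of the hypoxia peak it overlapped. At chr1:225474109-225474461, between LBR, which encodes a lamin B receptor, and ENAH, an actin regulator, fold was 2.68 in normoxia and 631 in hypoxia, with the summits 989 bp apart. At chr15:40275417-40275674 in PAK6, a kinase gene, it was 3.15 and 476, with the summits 629 bp apart. That site neighbours the quiet site at chr15:40274135-40275256, whose fold was 628 in normoxia and the same 476 in hypoxia. A quiet site beyond an annotated end of IGF2 (chr11:2150155-2150882), with fold 43.6 and 155, also had summits 1246 bp apart. The 5 sites that dropped most had summits 17 to 56 bp apart. They included chr10:11260123-11260552 in CELF2, an RNA-binding protein gene, with fold 22.8 and 3.31, and chr12:591040-591491 in NINJ2, with fold 21.4 and 3.43. The 2 lists differ in length, so percentiles from them show no change in binding.

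Of the 15 strongest quiet sites, 4 lay inside protein-coding genes, where 47.02% of all quiet sites lay. The other 11 lay outside, and 8 of these were in no annotated gene, as were 38.2% of all quiet sites. No difference was tested for so few sites. The highest normoxia fold, 776, was at chr6:53171619-53172582, 22.8 kb from GCM1, a transcription factor gene of the placenta, and 94.8 kb from ELOVL5, a fatty acid elongase gene. The hypoxia fold there was 572, with summits 12 bp apart, and the nearest active peak was 7.42 kb away. Next came chr14:94689250-94690130 with fold 707 and 387, between SERPINA3, a protease inhibitor gene, and GSC, a homeobox gene of early development. Another site, chr14:99628580-99629595 within HHIPL1, had fold 707 and 211. The site at chr7:151172319-151173532, 4.62 kb from the homeobox gene GBX1 and 2.17 kb from ASB10, had fold 668 and 604. The site at chr10:86376808-86378156, with fold 593 and 306, was 10.0 kb from GRID1, a glutamate receptor gene, and 57.1 kb from WAPL, which encodes the factor that releases cohesin. The deposited hypoxia value was below the normoxia value at all 15, which had been picked for a high normoxia value.

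Near genes the strongest quiet site was within 1 kb of an annotated end of NPAS4, a transcription factor gene induced by neuronal activity, at chr11:66407536-66409194 with fold 587 and 371. It was followed by a site at DUSP13B, a phosphatase gene (chr10:75099706-75101121, fold 540 and 216), and 1 at the start coordinate of RBFOX1, a neuronal splicing factor gene (chr16:5238844-5240126, fold 518 and 281). The site at ASNS, which encodes asparagine synthetase, had fold 421 and 396, and the one at RAB3IL1 had fold 480 and 350. The RBFOX1 site was 139 kb from any active peak, and the other 9 of the 10 strongest at gene ends were between 2.48 and 15.9 kb from one. The widest quiet site, of 4972 bp, lay in MVB12B (chr9:126498328-126503299, fold 418 and 346).

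The named sites on either side of the rule had overlapping folds. The quiet site at chr12:10190591-10191196 in TMEM52B adjoined an active peak without overlap and had a normoxia fold of 52.9, and a site at chr4:108762531-108762871 in ETNPPL, 1 bp away from one, had fold 12.1. Among the peaks left out for an overlap of 1 bp, that at chr20:57434304-57434768 had fold 35.1, that at chr7:70796024-70796356 near AUTS2 had 7.69 and that at chr9:137015288-137015588 in ABCA2 had 7.19. In all, 85 quiet sites were within 20 bp of an active peak, and 80 peaks were left out for an overlap of up to 20 bp.

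Quiet sites were spread from the edges of active peaks to the largest stretches without a listed active peak. The nearest active peak was a median of 18.3 kb away, with 80% of sites between 1.85 and 105 kb. There were 10380 sites (21.9%) within 5 kb of an active peak and 5057 (10.7%) more than 100 kb from one. Per Mb of sequence at a given distance of the summit, quiet sites numbered 16.9 within 1 kb of active peaks and 22.7 at 1 to 2 kb. They thinned to 8.32 per Mb at 200 to 500 kb. The normoxia-only CTCF peaks without an active peak numbered 8.03 per Mb within 1 kb and 7.64 at 1 to 2 kb. They thinned to 1.36 per Mb at 200 to 500 kb. The median normoxia fold was 17.2 within 1 kb, 33.3 at 10 to 20 kb and 25.5 at 200 to 500 kb. Within 1 kb, a CTCF peak wide enough to touch the active peak had been left out of both classes. The choice of sites can therefore bear on the density and the fold in that bin, and on the maximum at 1 to 2 kb. Its part in these values was not tested.

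**Figure D4:**
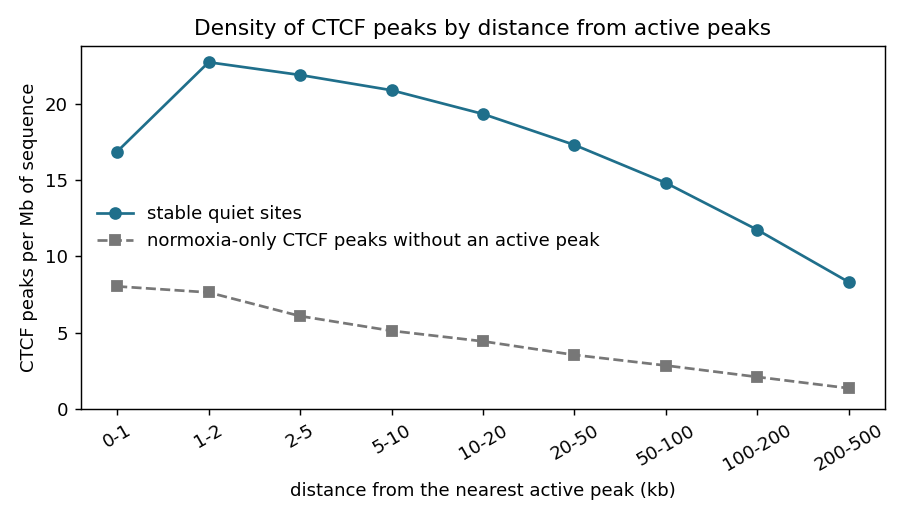
CTCF peaks per Mb of sequence (y axis) by distance from the nearest peak of the 6 active lists (x axis, kb), for quiet sites (circles) and for normoxia-only CTCF peaks without an active peak (squares). Quiet sites are densest at 1 to 2 kb, with 22.7 per Mb, and fall to 8.32 per Mb at 200 to 500 kb. In the bin below 1 kb, peaks that touched an active peak had been left out by the choice of sites.

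There were 93 stretches of at least 1.0 Mb with no active peak, holding 162 Mb in all, and 86 of them contained quiet sites. Assembly gaps and sequence to which reads cannot be mapped were not taken out of the 162 Mb. These stretches held 910 quiet sites, or 1.92%. The 4 quiet sites farthest from any active peak lay in KHDRBS2, an RNA-binding protein gene on chromosome 6, between 1243 and 1519 kb away. The farthest, chr6:61886674-61886924, was weak, with fold 5.77 in normoxia and 10.6 in hypoxia, while chr6:62150007-62150538 had fold 60.9 and 80.8. Along the chromosomes the nearest other quiet site was a median of 15.3 kb away, and 1281 sites (2.70%) had one within 1 kb.

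The antigen receptor loci were among the densest places. Their gene segments are rearranged in lymphocytes, and CTCF sites between the segments are known there. These loci were picked after their values had been seen. The IGH variable, diversity and joining segments (chr14:105863196-106875017) held 83 quiet sites of 95 shared CTCF peaks, or 82.03 per Mb, against 15.7 per Mb over chromosomes 1 to 22 and X. TRB held 39 of 43 (75.8 per Mb), IGL 53 of 58 (59.5 per Mb), and TRG 11 of 12 (95.9 per Mb). All 45 shared peaks in TRA and TRD were quiet (48.7 per Mb), as were all 39 in IGK (28.4 per Mb). Over all chromosomes 65.3% of shared CTCF peaks were quiet. The median normoxia fold of the quiet sites was 82.7 in IGL, 80.1 in TRG, 63.9 in IGH, 55.3 in TRB, 53.1 in TRA and TRD and 33.3 in IGK, against 30.4 over all quiet sites. Of 3020 bins of 1 Mb, the one with the most quiet sites, 60, was that from 22 to 23 Mb on chromosome 22, which holds IGL. The median bin held 15, with 80% of bins between 6 and 26. Repeated segments of near-identical sequence can share reads, and no source used here says how the authors treated such reads.

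Gene-rich chromosomes had a lower share of quiet sites among their shared CTCF peaks, although not fewer quiet sites. The share was lowest on chromosome 19, at 45.1% (43.2 to 46.97%), on chromosome 17, at 49.9% (48.2 to 51.6%), and on chromosome 16, at 53.8% (51.9 to 55.6%). It was highest on the X chromosome, at 76.7% (74.9 to 78.3%), on chromosome 18, at 76.6% (74.3 to 78.7%), and on chromosome 4, at 75.7% (74.2 to 77.1%). Across the 23 chromosomes the share had a Pearson correlation of -0.85 and a Spearman correlation of -0.89 with protein-coding genes per Mb, as a description, since all chromosomes share the same libraries. Quiet sites per Mb went the other way, from 11.1 on chromosome 13 to 21.1 on chromosome 19 (Pearson 0.76, Spearman 0.78). The length of a chromosome, also where all sequence is the base, ran to its last listed peak, and assembly gaps were not taken out. Chromosomes with long gaps therefore have densities that are too low, and both densities of this correlation share the same length. Active sites varied more, from 3.53 per Mb on the X chromosome to 25.6 on chromosome 19.

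**Figure D5:**
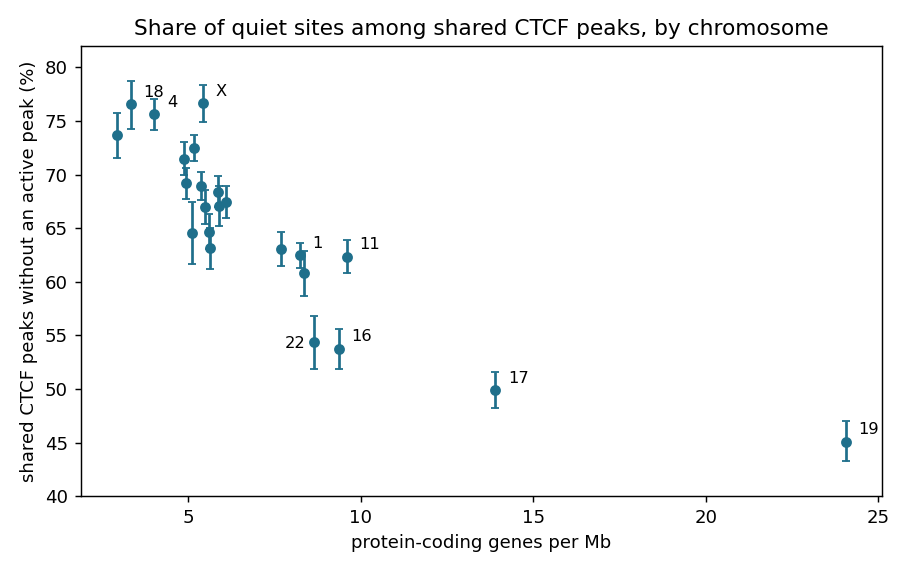
Percentage of shared CTCF peaks that are quiet (y axis, which starts at 40%, with 95% Wilson intervals) against protein-coding genes per Mb (x axis), with 1 point for each of 23 chromosomes and some of them named. Chromosome 19 is lowest at 45.1%, and the X chromosome and chromosome 18 are highest at 76.7% and 76.6%.

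Quiet sites were seldom at gene ends. Within 1 kb of an annotated end of a protein-coding gene lay 4.22% (4.04 to 4.41%) of quiet sites and 41.0% (40.4 to 41.6%) of active sites, where such windows cover 2.38% of the sequence. Leaving out H3K27ac peaks removes active promoters, so the direction of this difference follows from the choice of sites. Among 15812 protein-coding genes whose direction was known from the promoter windows, 591 had a quiet site within 1 kb of the start and 1009 within 1 kb of the opposite end. Active sites were at 7570 starts and 1330 opposite ends. Active promoters lie at starts, so the choice bears on this split as well, and it is given as a description. Inside protein-coding genes lay 47.02% of quiet sites, against 41.6% of the sequence in such genes, and 69.0% of active sites. Another 14.8% of quiet sites lay in other genes only and 38.2% in none. Exons and introns could not be told apart here.

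Genes with a quiet site inside were longer than the others. A quiet site lay inside 8758 protein-coding genes, or 44.2%, whose median length was 62.8 kb, against 11.8 kb for the genes without one. A longer gene has more room for a site, so length bears on this difference. All 314 genes longer than 500 kb had at least 1, and the overall density of 1.57 per 100 kb would give several in each. These genes held 7.47% of quiet sites and 2.80% of active sites, and the share of sequence they cover was not taken. DLG2, a scaffold protein gene of synapses, had the most, 36 over 2173 kb, followed by KAZN and RBFOX1 with 33 each. Per length these came to 1.66 per 100 kb in DLG2, 2.69 in KAZN and 1.33 in RBFOX1, against 1.57 per 100 kb over all sequence, so that the count in DLG2 and RBFOX1 was near what their length holds at the overall density. FSTL4 (26 sites, 4.03 per 100 kb) and CDH23, a cadherin gene of the inner ear (20 sites, 4.77 per 100 kb), were the densest of the 30 genes with the most sites.

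Lists of genes known from other tissues, and of genes at common fragile sites, differed in how many members had quiet sites and also in gene length. Expression was not measured in these files. Among 30 neuronal genes 26 had a quiet site inside (median gene length 813 kb), and among 16 genes of common fragile sites all 16 did (1505 kb). Of all protein-coding genes 44.2% had one, at a median length of 24.5 kb. Genes as long as those of the 2 lists hold several sites at the overall 1.57 per 100 kb. The counts therefore do not set these lists apart. CACNA1C, a calcium channel gene, held the strongest neuronal site, chr12:2582660-2584095 with fold 417 and 239. An annotated end of GRIN2A, a glutamate receptor gene, held chr16:10180526-10182847 with fold 325 and 199, which was 185 kb from any active peak. LSAMP, a neuronal adhesion gene at a fragile site, had a site of fold 241 and 256. At gene ends, 5 of 20 muscle genes and 5 of 20 immune marker genes had a quiet site, or 25% in each, against 10.2% of all genes. Any shared CTCF peak stood there in 6 muscle genes (30%) and 8 immune genes (40%), against 56.5% of all genes. Leaving out H3K27ac peaks spares genes without an active promoter, so the choice bears on these small counts, which have no interval. The muscle and immune genes with a quiet site at an end included MYOD1, the master regulator of muscle (fold 65.5 and 46.9), and ITGAM, an integrin gene of myeloid cells (62.2 and 68.3). Among 20 liver genes 2 had one at an end, APOB (235 and 266) and APOC3 (18.9 and 14.8), both of which encode apolipoproteins.

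Olfactory receptor genes, short genes in clusters, had few. Of 387 genes 19 had a quiet site at an end, or 4.91%, and 22 (5.68%) had any shared CTCF peak there, against 10.2% and 56.5% of all genes. The strongest was at OR51D1 (chr11:4636753-4637488, fold 188 and 202). Keratin and keratin-associated genes had a quiet site at an end in 12 of 149 (8.05%), near the 10.2% of all genes, led by KRTAP5-5 with fold 208 and 145.

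Several lists of genes that are active in many cells were counted beside all 19821 protein-coding genes, of which 11205 (56.5%) had a shared CTCF peak at an end and 2030 (10.2%) a quiet one. Leaving out H3K27ac peaks removes active promoters, so low counts of quiet sites at such genes follow in part from the choice. Of 81 ribosomal protein genes 58 had a shared CTCF peak at an end and only RPL22 had a quiet one (fold 77.6 and 74.9). Of 70 replication-dependent histone genes 43 had a shared peak and none had a quiet one, either at an end or inside. Zinc finger genes had 249 of 477 with a shared peak and 17 with a quiet one (3.56%), led by ZNF648 (266 and 214). Among 20 luminal identity genes, 16 had a shared peak at an end and 1, GREB1, an oestrogen-induced gene, had a quiet one, a weak site with fold 10.2 and 6.80. Inside ESR1, the oestrogen receptor gene, there was a quiet site of fold 76.2 and 79.8. Among 36 hypoxia-induced genes, 26 had a shared peak at an end and 3 had a quiet one (8.33%, near the share of all genes). These were KDM4B, a histone demethylase gene (53.0 and 42.0), P4HA2, a collagen hydroxylase gene (28.7 and 19.4), and EPO, the erythropoietin gene (16.6 and 19.3). PDK1, which restrains pyruvate dehydrogenase, had quiet sites inside, the strongest with fold 106 and 80.5.

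Of 17 genes of the CTCF and cohesin machinery, 4 had a quiet site within 1 kb of an end (23.5%, against 10.2% of all genes) and 12 had one inside (70.6%, against 44.2%). Any shared CTCF peak stood at an end of 16 of the 17 (94.1%), against 56.5% of all genes. These small counts have no interval. The median length of the 17 genes was 67.5 kb, against 24.5 kb for all genes. CTCFL, the germline paralogue of CTCF, had one at an end with fold 168 and 156 and others inside with fold 141 and 137 in normoxia. MAU2, a subunit of the cohesin loader, had one inside with fold 303 and 187, and PDS5B, a cohesin regulator, one with fold 120 and 94.5. SMC1A, a core cohesin subunit, had a weak one at an end with fold 12.8 and 9.69.

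At loci where CTCF sites are textbook examples, both kinds were found. Of 31 genes, 25 had a shared CTCF peak inside or within 1 kb of an end. At 4 of the 25 all were quiet, at 11 all were active, and at the other 10 both kinds stood side by side. The fully quiet ones were KCNQ1OT1 and PEG3, which are imprinted, IFNG, the interferon gamma gene, and CFTR, the chloride channel gene, with highest normoxia folds of 39.6, 15.7, 37.6 and 11.4. H19, whose imprinting control region binds CTCF, had only active sites, up to fold 248, as had HOXD13, up to 224, and DMPK, up to 176. At PLAGL1, an imprinted gene, 4 of 6 were quiet, up to fold 210, and at CIITA, the master regulator of MHC class II genes, 3 of 4, up to 223. At HOXA13 the quiet site had fold 145 and the active one 10.6, whereas at EPHA4 the 2 quiet sites reached 18.1 and an active one 279. FIRRE, a long non-coding RNA gene with a row of CTCF sites on the X chromosome, had 16 shared peaks of which 2 were quiet. The HOX genes as a group had a quiet site at an end of 1 of 39, HOXD10 (68.1 and 88.8).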

How the data were processed

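T47D chromatin was immunoprecipitated with antibodies to CTCF, H3K27ac, ZHX2 or Flag. The submitters' processing notes name the tools cutadapt, Bowtie2 and MACS2, without versions, and the build GRCh38 (hg38). The authors deposited 1 peak list per group of 2 samples. Whether replicates were pooled, how the samples without antibody were used and the number of reads are not given in the sources used here. The score, the fold enrichment (a ratio over background) and the −log10 q of a peak are the authors' deposited values, taken only to order or select peaks of the same list. Flag lists held positions alone.

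Overlap was counted from 1 bp (Python 3.11.15, pandas 2.3.3), and the scripts were tested on simulated intervals. The members and the 16 gene lists were chosen with earlier results of these data known. Sites named are those with the highest normoxia fold (15 in all, 10 at gene ends, up to 4 per list), the 5 farthest from active peaks, the 5 widest, the 5 that climbed and the 5 that dropped most between lists, 3 on either side of the rule, and the textbook loci. The antigen receptor loci and the short protocadherin string were added after seeing the data. Genes came from a RefSeq table of GRCh38.p14, leaving out scaffolds (19821 protein-coding genes, 15812 of them with a promoter window). Its order was used to tell scaffold entries from chromosomes. Window sequences came from RefSeq, those printed leave out chromosome 8, and 1 mismatch was allowed in the 12-letter core. Shares have 95% Wilson intervals. The 10 alternatives are given in the closing section.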

Additional observations from a re-analysis of the deposited data

How the results depend on the processing

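Of 56 values of 6 results recomputed under 10 alternatives, 31 stayed within a tolerance and 25 did not, and none has a test. The tolerance was the reported 95% interval for shares and medians, and a factor of 1.5 either way for counts. Requiring an overlap of 50% of the shorter peak moved the share of quiet sites with a hypoxia summit within 100 bp from 98.0% to 98.2%. A −log10 q of at least 10 moved that share to 98.3%. Pairing by summits within 250 bp gave 99.8% for it and 52.9% for the share of the normoxia list that is quiet. Taking only the upper 50% of each list by score left 25544 quiet sites, 57.9% of the list, with 99.0% of summits within 100 bp, a median fold of 73.7 and 1162 genes with a quiet site at an end. With no active peak within 5 kb, 37085 quiet sites were left, the quiet share was 42.0%, summits within 100 bp 98.5%, median fold 31.2, sites at gene ends 3.32% and genes 1242. With the H3K27ac lists alone used to leave out, these were 56.6% of the list, 97.9% of summits, a median fold of 31.3, 5.23% at gene ends and 2580 genes. Merging peaks within 500 bp gave 55.0%, 99.4% and a median of 31.4, and starting from the hypoxia list gave 60.5% and 99.3%. Windows of 3 kb at gene ends gave 10.2% of sites and 4610 genes. The cause of these moves was not tested beyond the settings themselves, which change how many peaks enter. The number of reads behind a peak is unknown, so a peak missing from a list may be a matter of depth. Each group has 1 list, and the spread between replicates was not available for any value.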
